A study of Mus musculus with 106 samples.

Results

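Messenger RNA on the ribosomes of vGluT2 neurons was compared with total RNA of the same tissue in the cerebrum of control mice. The libraries were those whose labels give the Control genotype, vGlut2 as the cell type and Cerebrum as the tissue, which were 9 of the 106 libraries of the series. They comprised 6 RiboTag immunoprecipitates (IPs) and 3 inputs. The study profiled neuron classes of mice with an expanded Htt allele and of littermate controls, by RNA sequencing. In RiboTag mice, Cre recombinase exchanges the last exon of Rpl22, a protein of the large ribosomal subunit, for a copy that carries an HA epitope, so an antibody to HA recovers ribosomes and their mRNA from cells that have had Cre. Here Cre was expressed from the Slc17a6 locus (vGluT2-IRES-Cre). The input was total RNA taken from the homogenate, with all cell types of the tissue in it.

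All mice carried a single copy of the Cre allele and a single copy of the RiboTag allele, were backcrossed to the 129S4 strain (over 99%) and were about 9 months old. Controls carried wild-type Hdh (Htt) on both chromosomes. Mice named HD below carried the Q200 expanded repeat allele on 1 chromosome and wild-type Hdh on the other. Besides the 9 libraries, the text uses 6 IPs and 3 inputs of HD cerebral vGluT2, 6 IPs and 3 inputs of control cerebral Gad2 (Cre at the Gad2 locus), and 5 IPs and 4 inputs of control cerebellar vGluT2. An alternative fit, with the input of 4 Cre lines, also pools 3 control cerebral inputs of the PV line and 4 of the SST line. Each tissue piece came from a flash-frozen hemisphere of a single mouse, and cerebrum meant brain without olfactory bulb and cerebellum, so that thalamus, hypothalamus and brainstem were part of it. The 6 IPs came from 6 mice. The inputs 1, 2 and 3 came from the same homogenates as IPs 4, 5 and 6, and IPs 1, 2 and 3 had no input of their own. Recombination is permanent, so cells that expressed Slc17a6 only earlier in life are tagged too. The series holds no IP from mice without Cre, and the effect of preparation cannot be told apart from that of the IP. The labels give different RNA kits for IP and input, whereas the supplementary methods give the same type for both.

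vGluT2, the product of Slc17a6, loads glutamate into synaptic vesicles. In the adult forebrain it is the main such transporter of thalamic and habenular neurons and of many glutamatergic neurons of hypothalamus and brainstem, whereas most cortical and hippocampal excitatory neurons use vGluT1 (Slc17a7) and pass through an earlier stage with vGluT2. GABAergic neurons, which make GABA with Gad1 and Gad2 and load it with Slc32a1, form a separate class.

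The counts assigned to mouse genes were 29903359 at the lowest, 36255018 at the median and 68022491 at the highest of the IPs, and 49987768, 33535507 and 28504318 in inputs 1, 2 and 3. Levels are given as CPM scaled for composition (TMM), and the lowest, median and highest of the 6 IPs are followed by inputs 1, 2 and 3. IP 1 held 2.18% of its counts in cytosolic ribosomal protein genes, against 1.05% to 1.33% in the other IPs. IP 2 was the deepest library and held 0.0169% haemoglobin transcripts, against at most 0.00317% in the other IPs and 0.0493%, 0.140% and 0.0411% in the inputs. IP 6 held 5.55% of its counts in CT010467.1, a ribosomal RNA gene that is not among the protein-coding genes tested, against 1.45% to 2.02% in the other IPs.

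Base composition set libraries apart. Among genes at 5 CPM or more, split into 5 groups of equal size by the GC content of the transcript, the lowest-GC group lay below the mean of the 9 libraries in input 1 by a median log2 deviation of -0.99, in input 2 by -0.83, in IP 1 by -0.31 and in input 3 by -0.15. The other IPs lay above it, from 0.33 in IP 4 to 0.54 in IP 3. The median log2 ratio of IP to input accordingly ran from 0.98 in the lowest-GC group through 0.45, -0.01 and -0.28 to -0.42 in the highest. In HD mice it ran from 0.30 to 0.00 over the same groups. Further fits were therefore added after the data were seen. A correction removes from each library a smooth trend of the counts with GC content and transcript length, after which the medians of the groups were 0.10, 0.01, 0.07, 0.08 and 0.08. That correction also takes away any difference between vGluT2 neurons and tissue that follows GC content or length, and the share of each was not tested. Another fit takes input 3, the input nearest to the IPs in base composition, as the only input. A value called corrected below has the GC and length correction.

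**Figure D1:**
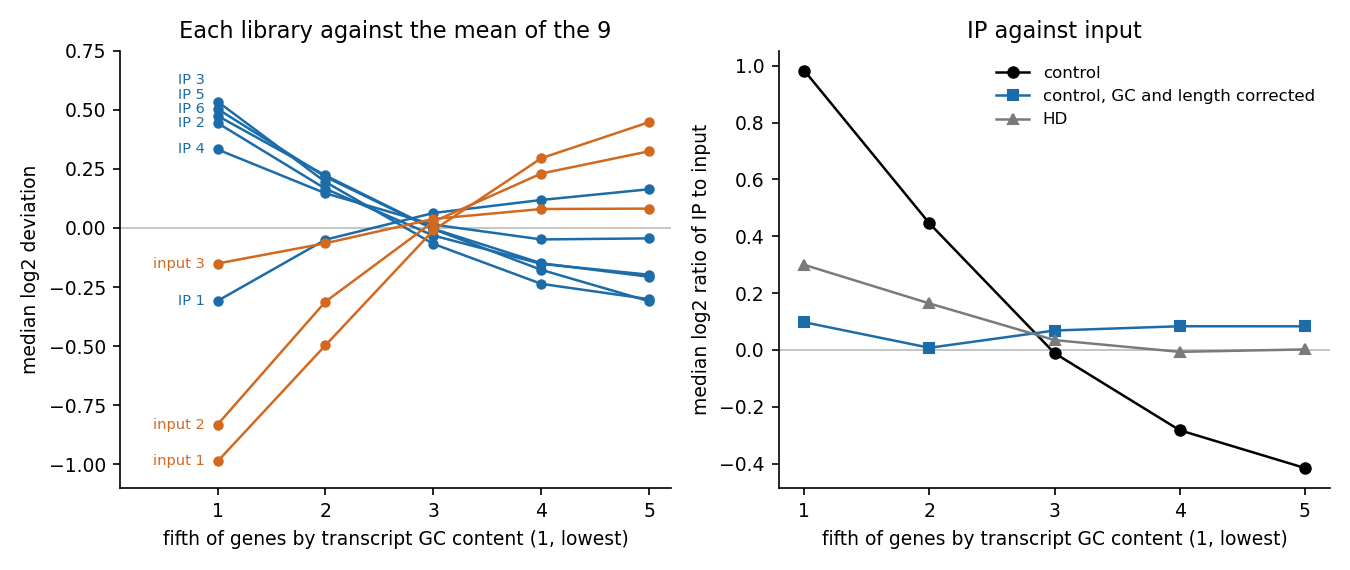
Left: median log2 deviation of each library from the mean of the 9 libraries, for 5 groups of genes ordered by transcript GC content, where blue lines are IPs and orange lines inputs. Right: median log2 ratio of IP to input in the same groups, for control mice, for control mice with GC and length correction, and for HD mice. Inputs 1 and 2 lie lowest in the lowest-GC group, and the uncorrected control ratio runs from 0.98 to -0.42.

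Slc17a6, the gene whose locus drives Cre, was enriched in the IPs. Its levels (ENSMUSG00000030500.6, chromosome 7, 51622006 to 51671119, GRCm38) were 40.8, 116 and 146 CPM in the IPs and 20.5, 28.8 and 50.2 CPM in the inputs. IP 1 was the lowest IP and lay below input 3, while the other 5 IPs lay above all inputs. The log2 ratio of IP to input was 1.72 ± 0.39 (standard error), with an adjusted p of 0.00334 from edgeR's quasi-likelihood test after Benjamini-Hochberg adjustment over the 14717 protein-coding genes tested. The same test stands behind every adjusted p below, and genes at 0.05 or less are called. The corrected ratio was 0.79 (adjusted p 0.00509). Against input 3 alone it was 1.10 and not called (adjusted p 0.187), and with mouse as a replicate block, in the 3 mice that gave both IP and input, it was 2.16 (adjusted p 0.00169). In bulk tissue, more vGluT2 neurons and more of a transcript in each of them cannot be told apart in these ratios.

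The other vesicular glutamate transporters were not called without the correction. Slc17a7 stood at 1695, 1957 and 2293 CPM in the IPs and 1949, 1622 and 1499 CPM in the inputs, so the groups overlapped. Its log2 ratio was 0.22 ± 0.13 (adjusted p 0.178), and corrected 0.73 (adjusted p 2.36e-05). Per kb of transcript the IP mean was 824 CPM for Slc17a7 against 26.3 CPM for Slc17a6, so vGluT1 mRNA was the more abundant on the tagged ribosomes. Slc17a8, which encodes vGluT3, stayed at 1.31 to 3.31 CPM in the IPs, with a log2 ratio of -0.29 that was not called and a corrected ratio of -0.99 (adjusted p 0.0121). Of the 3 transporters 1 was called higher and 0 lower, but in HD mice, described below, 2 were called higher.

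Across all 14717 genes tested, 3791 were called higher in IP (25.8%) and 4126 lower (28%). At 2-fold or more, 1940 were higher (13.2%) and 2293 lower (15.6%). The IPs lay wholly above the inputs in 2713 genes (18.4%) and wholly below in 3765 (25.6%). The median log2 ratio over all genes was -0.02. The GC groups hold only genes at 5 CPM or more. Among these, the genes called at least 2-fold higher were mostly low in GC: 1095 were in the lowest-GC group and 7 in the highest. With the correction, 4031 genes were called higher (27.4%) and 4193 lower (28.5%). At 2-fold or more, 650 were then higher (4.42%) and 2238 lower (15.2%). Both fits called 2368 of the 3791 genes higher and 3059 of the 4126 lower. At 2-fold or more they shared 471 of the 1940 higher and 1889 of the 2293 lower. With input 3 as the only input, 916 genes were called higher and 2090 lower, of which 495 and 1670 by 2-fold or more. Without input 1, the count at least 2-fold higher was 1274. The depleted side thus depended less on the libraries and the correction than the enriched side.

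**Figure D2:**
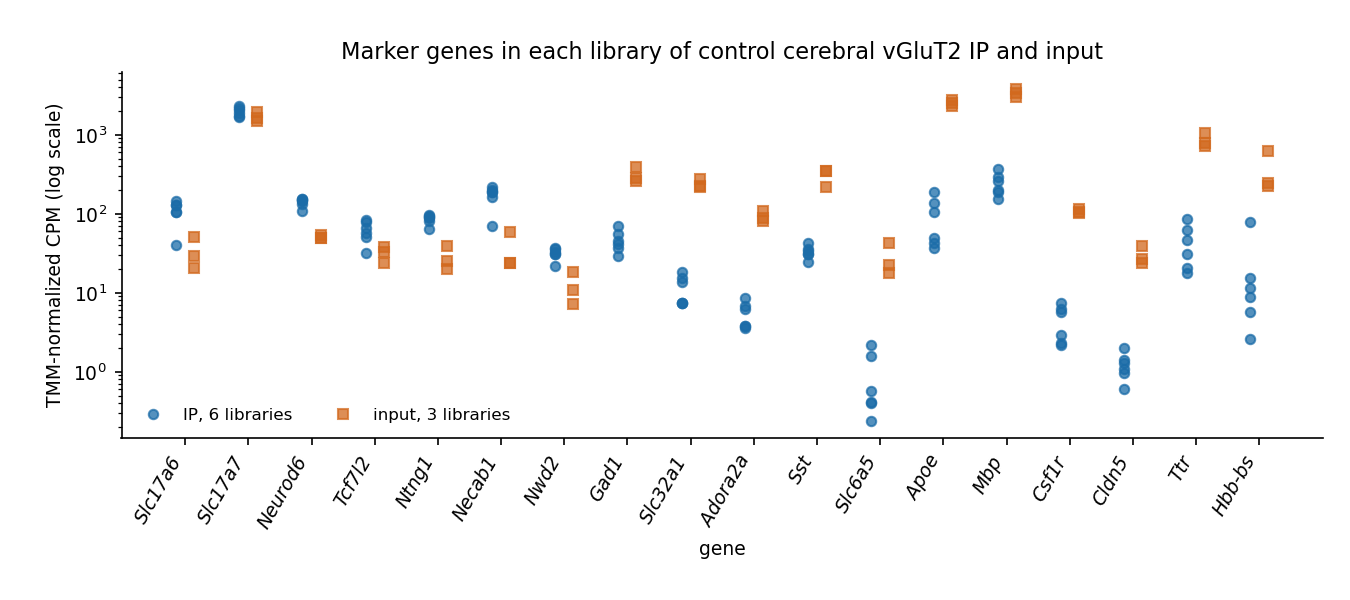
TMM-normalized CPM (log axis) of 18 genes in each of the 6 IPs (blue circles) and 3 inputs (orange squares). Slc17a6 overlaps between the groups at IP 1, Neurod6 lies higher in all IPs, and the markers from Gad1 to Hbb-bs lie lower in all IPs than in any input.

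Markers of glia were depleted throughout. All 14 astrocyte genes were called lower, with a median log2 ratio of -3.08 against -0.02 for all genes, and their summed level was 848, 912 and 1166 CPM in the IPs and 6249, 6197 and 6814 CPM in the inputs. Apoe, the lipid carrier made mainly by astrocytes, was the most abundant of them per kb in the inputs, and stood at 36.8, 77.0 and 188 CPM in the IPs and 2742, 2545 and 2300 CPM in the inputs (log2 -4.76 ± 0.47, adjusted p 1.3e-05). Gfap, the astrocytic intermediate filament, had a log2 ratio of -4.36, and Aldoc, the aldolase of astrocytes, -2.70. In both, all IPs lay below all inputs. Slc1a2, the main astrocytic glutamate transporter, was the exception in size and the most abundant of the list per kb in the IPs. It stood at 343, 499 and 619 CPM in the IPs and 511, 619 and 1274 CPM in the inputs, which overlapped (log2 -0.71 ± 0.26, adjusted p 0.0368). That call was lost without IP 2, IP 4, IP 5 or IP 6 (-0.72, -0.65, -0.72 and -0.65) and without input 3 (-0.21), while the corrected ratio was -1.09 (adjusted p 0.000375) and the ratio against input 3 alone -1.38. With mouse as a replicate block Slc1a2 was not called either.

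All 14 oligodendrocyte genes were called lower as well (median -4.00). Their summed level was 349, 550.1 and 724 CPM in the IPs and 6415, 5985 and 5940 CPM in the inputs. Mbp, the major protein of compact myelin, led the list per kb in both groups and stood at 154, 228 and 368 CPM in the IPs and 3842, 3388 and 2989 CPM in the inputs (log2 -3.81 ± 0.24, adjusted p 3.98e-07). Mog and Mag, myelin surface proteins, had log2 ratios of -4.46 and -4.29. The 4 genes of oligodendrocyte precursors were called lower too, with a median of -3.40 and summed levels of 6.75, 11.1 and 14.1 CPM in the IPs and 86.1, 99.6 and 112 CPM in the inputs. Pdgfra, their growth factor receptor and the most abundant per kb in both groups, had a log2 ratio of -2.62, and -3.22 against input 3 alone.

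The 13 microglial genes were all called lower, with a median of -3.88 and summed levels of 32.9, 50.1 and 63.0 CPM in the IPs and 562, 527 and 506 CPM in the inputs. Csf1r, the receptor microglia need to survive, stood at 2.17, 4.34 and 7.47 CPM in the IPs and 116, 106 and 102 CPM in the inputs (log2 -4.58 ± 0.36, adjusted p 2.1e-06). Tmem119 and P2ry12, both used to tell resident microglia from other myeloid cells, had log2 ratios of -4.89 and -3.88, the latter -4.88 after correction. None of these 3 markers was at 0 in any IP. The part of glial RNA in other results was not tested.

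Vessel, ventricle and blood transcripts followed the same course. Of 15 endothelial and mural genes 14 were called lower (median -3.46), with summed levels of 17.9, 24.2 and 38.0 CPM in the IPs and 263, 245 and 252 CPM in the inputs. Cldn5, a tight junction protein of brain endothelium, stood at 0.597, 1.19 and 2.02 CPM in the IPs and 38.9, 24.0 and 26.9 CPM in the inputs (log2 -4.61 ± 0.29, adjusted p 4.64e-07). Vtn, a matrix protein of pericytes and the most abundant of the list per kb in the inputs, had a log2 ratio of -4.34. Rgs5, a pericyte signalling regulator and the most abundant per kb in the IPs, had -1.36, and -2.24 after correction. Of 13 genes of choroid plexus, ependyma and meninges 11 were called lower and 1 higher (median -3.67). Their summed level was 52.1, 72.9 and 118 CPM in the IPs and 1153, 884 and 833 CPM in the inputs, there mostly Ttr, the thyroxine carrier of choroid plexus and the leading gene per kb in both groups (log2 -4.27 ± 0.43, adjusted p 1.5e-05). Col1a2, a collagen chain of fibroblasts, had a log2 ratio of -4.56. The call upward was Dcn, a meningeal matrix proteoglycan, at 0.57 (adjusted p 0.022). It turned after correction, to -0.35 (adjusted p 0.023), and was lost without input 1 (0.42), without input 2 (0.51) and against input 3 alone (0.10).

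All 4 haemoglobin genes were called lower (median -4.06, and -5.27 without IP 2 and -3.22 without input 2), at a summed 6.80, 22.7 and 164 CPM in the IPs and 499.8, 1331 and 418 CPM in the inputs. Hbb-bs, the leading gene per kb in both groups, stood at 2.56, 10.1 and 78.3 CPM in the IPs and 249, 632 and 225 CPM in the inputs. IP 2 was the high IP and input 2 the high input, and no IP reached an input. The log2 ratio was -4.17 ± 0.85 (adjusted p 0.00179), -5.40 without IP 2 and -3.48 without input 2. Set against input 3 alone, it was -3.46 and did not pass the threshold (adjusted p 0.0521). Hba-a2 had -4.03, -4.95 without IP 2 and -3.18 without input 2. Reads of the near-identical pairs Hba-a1 with Hba-a2 and Hbb-bs with Hbb-bt may be split between copies in the counting, so single values are uncertain.

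GABAergic neurons were strongly depleted. All 10 genes of their list were called lower, with a median log2 ratio of -3.47, and their summed level was 88.3, 120.1 and 185 CPM in the IPs and 1227, 1057 and 1345 CPM in the inputs. Gad1 stood at 29.2, 43.2 and 70.0 CPM in the IPs and 283, 259.8 and 394 CPM in the inputs (log2 -2.75 ± 0.24, adjusted p 4.74e-06), and was the most abundant of the list per kb in both groups. Slc32a1 stood at 7.46, 10.5 and 18.3 CPM in the IPs and 274, 223 and 218 CPM in the inputs (log2 -4.35 ± 0.30, adjusted p 7.27e-07). In both genes, every IP lay below every input. Gad2 had a log2 ratio of -2.39 and -3.19 after correction. The transcription factors of GABAergic lineages Dlx5 and Lhx6 had log2 ratios of -3.95 and -3.51. Dlx5 was at 0 in the lowest IP and at most 0.966 CPM in the others.

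Striatal projection neurons, which are GABAergic, had 12 of 13 genes called lower and 1 higher, Foxp1 (median -1.60), with summed levels of 595, 637 and 737 CPM in the IPs and 1999, 1807 and 1809 CPM in the inputs. Adora2a, the adenosine receptor of the indirect pathway, stood at 3.60, 4.99 and 8.68 CPM in the IPs and 109, 88.4 and 82.2 CPM in the inputs (log2 -4.08 ± 0.27, adjusted p 6.1e-07), and -3.43 after correction. Drd2, the dopamine receptor of the same neurons, had -2.60. Penk, the enkephalin precursor and the most abundant of the list per kb in both groups, had -1.60, and Ppp1r1b (DARPP-32) had -1.75. Foxp1, a transcription factor of striatum and deep cortex, had 0.74 (adjusted p 0.00998), and was not called without input 1 (0.58) or against input 3 alone (0.25). Drd1, the receptor of the direct pathway and of some cortical neurons, differed less. Its levels were 9.86, 13.5 and 15.5 CPM in the IPs and 15.3, 20.4 and 28.3 CPM in the inputs, and the groups overlapped. Its log2 ratio was -0.68 ± 0.20 (adjusted p 0.0131), and -1.32 after correction. It was not called without input 3 (-0.44) or with mouse as a replicate block.

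Of 7 genes of cortical interneuron classes 5 were called lower and 1 higher (median -1.47), and the summed level was 353, 436 and 472 CPM in the IPs and 789.8, 797 and 627 CPM in the inputs. Sst, the somatostatin precursor and the most abundant of them per kb in the inputs, stood at 24.2, 32.4 and 43.0 CPM in the IPs and 349.6, 347 and 221 CPM in the inputs (log2 -3.21 ± 0.19, adjusted p 2.62e-07). Vip had -2.59, and -3.52 after correction, with IP 6 at 0.315 CPM and the other IPs at 2.53 CPM or more. Pvalb, the calcium buffer of fast-spiking cells and of some thalamic and brainstem neurons, differed less, with -1.47 ± 0.28 (adjusted p 0.00122), and was not called against input 3 alone (-1.10). Lamp5, found in neurogliaform interneurons but also in cortical excitatory neurons, was the gene called higher, at 249, 297 and 312 CPM in the IPs and 197, 197 and 186 CPM in the inputs (log2 0.59 ± 0.11, adjusted p 0.00116), and led the list per kb in the IPs.

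Neurons that release monoamines, acetylcholine or glycine had 9 of 14 genes called lower and 0 higher (median -1.30), at a summed 50.0, 64.2 and 73.8 CPM in the IPs and 124, 144 and 154 CPM in the inputs. Th, the enzyme that makes the precursor of dopamine and noradrenaline, led the list per kb in the IPs and Chat in the inputs. Slc6a5, the glycine transporter of glycinergic terminals, stood at 0.235, 0.493 and 2.18 CPM in the IPs and 22.8, 17.8 and 42.4 CPM in the inputs (log2 -4.93 ± 0.56, adjusted p 3.64e-05). Slc6a4, the serotonin transporter, had -5.10, and -3.93 without input 2, the input highest for it. Chat, which makes acetylcholine, had -3.32 and -2.68 after correction, and Hdc, which makes histamine, -3.45. Slc6a3, the dopamine transporter, differed far less. It stood at 14.5, 17.9 and 20.0 CPM in the IPs and 25.4, 23.1 and 25.0 CPM in the inputs (log2 -0.46 ± 0.13, adjusted p 0.012), without overlap, and was not called against input 3 alone (-0.50) or with mouse as a replicate block (-0.35).

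Of 15 thalamic genes, 9 were called higher and 0 lower, with a median of 0.73, and after correction 11 were higher and 0 lower with a median of 0.70. Their summed level was 795, 956 and 1039 CPM in the IPs, IP 1 lowest, and 544, 561 and 621 CPM in the inputs, so that no IP overlapped an input. Ntng1, a netrin-related adhesion protein of thalamocortical axons, stood at 63.4, 89.6 and 95.9 CPM in the IPs and 20.1, 25.0 and 39.2 CPM in the inputs (log2 1.61 ± 0.22, adjusted p 0.000132). It stayed called against input 3 alone (1.12, adjusted p 0.0123) and after correction (1.34, adjusted p 3.54e-05). Necab1, a calcium-binding protein, stood at 69.9, 190.5 and 221 CPM in the IPs and 23.7, 23.6 and 59.4 CPM in the inputs, with IP 1 the low IP and input 3 the high input (log2 2.29 ± 0.41, adjusted p 0.000785). Its ratio was 1.35 after correction, and 1.53 and not called against input 3 alone. Shox2, a transcription factor of thalamic neurons, had 0.95 (adjusted p 0.00109) without overlap, and 0.85 and no call against input 3 alone. Tcf7l2, the transcription factor that marks thalamus and habenula and is also found in oligodendrocyte precursors, stood at 32.2, 62.4 and 84.7 CPM in the IPs and 33.0, 23.9 and 37.9 CPM in the inputs. IP 1 lay within the inputs. Its log2 ratio was 0.97 ± 0.28 (adjusted p 0.0121), and it was not called without input 2 (0.85) or against input 3 alone (0.70). Prkcd, a kinase of first-order relay nuclei, was not called (0.31) before correction and was after it (0.51, adjusted p 0.014). It was also called without IP 3 (0.39) and with mouse as a replicate block.

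Of 6 habenular genes 2 were called higher and 0 lower (median 0.63), where 25.8% of all genes were called higher and 28% lower. Their summed level was 36.7, 50.5 and 57.5 CPM in the IPs and 16.6, 24.4 and 32.7 CPM in the inputs. Nwd2, strongly expressed in medial habenula, stood at 21.9, 32.2 and 36.7 CPM in the IPs and 7.16, 10.7 and 18.2 CPM in the inputs (log2 1.40 ± 0.27, adjusted p 0.00135). All IPs lay above all inputs, but the gene was not called against input 3 alone (0.79). Pou4f1, the transcription factor of habenular identity, was at 1.99 to 4.27 CPM in the IPs and 1.60, 1.53 and 2.82 CPM in the inputs, and its log2 ratio of 0.77 ± 0.30 (adjusted p 0.049) was not called in 7 of the 9 fits that leave out a library: without IP 2 (0.78), IP 3 (0.75), IP 4 (0.83), IP 5 (0.70), IP 6 (0.73), input 1 (0.63) and input 2 (0.67). With input 3 as the only input it was 0.24, not called.

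Of 15 genes of cortical and hippocampal excitatory neurons, 8 were called higher, 6 not called and 1 called lower (median 0.55), and after correction 11 were higher and 1 lower (median 0.95). Their summed levels, 5405, 6348 and 7759 CPM in the IPs and 6099, 5282 and 5510 CPM in the inputs, overlapped. Neurod6, a transcription factor of pyramidal neurons, stood at 107.7, 147 and 156 CPM in the IPs and 50.1, 49.4 and 53.8 CPM in the inputs (log2 1.46 ± 0.14, adjusted p 1.08e-05). No IP overlapped an input, and the ratio was 0.45 (adjusted p 0.0167) after correction. Tbr1, of deep-layer neurons, had 1.19 (adjusted p 0.00102). It lay higher in all IPs than in any input, and was not called against input 3 alone (0.95). Neurod2, another pyramidal transcription factor, had 0.69 (adjusted p 0.00143) and 1.20 after correction. Nrgn, a calmodulin-binding protein of forebrain dendrites, had 0.63 (adjusted p 0.00823), 1.13 after correction, and 0.85 without a call against input 3 alone. Camk2a, the kinase of forebrain excitatory synapses, led the list per kb in both groups and was not called (log2 -0.24, adjusted p 0.13), with 0.10 after correction. With mouse as a replicate block Camk2a was called. The gene called lower was Emx2 at -0.80 (adjusted p 0.00767), a transcription factor of cortical progenitors.

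Transcription factors of deeper regions showed no common direction, where 25.8% of all genes were called higher and 28% lower. Of 12 hypothalamic and subthalamic factors 1 was called higher and 2 lower (median -0.02, and 0.55 without input 2), at a summed 14.7, 17.3 and 25.0 CPM in the IPs and 20.2, 27.5 and 20.1 CPM in the inputs, and after correction 1 was higher and 0 lower. Sim1, of paraventricular neurons, was called at 1.71 ± 0.60 (adjusted p 0.0311) with IPs of only 0.168 to 1.12 CPM. That call was lost without IP 2 (1.65), IP 5 (1.67), input 1 (1.34) or input 2 (1.64), and the ratio was 2.29 without input 3 and, not called, 0.86 against input 3 alone and 0.72 after correction. Nkx2-1, of ventral hypothalamus and some interneurons, had -1.61 (adjusted p 0.0111) and lost its call without input 2 (-1.29), after correction (-1.13) and against input 3 alone (-1.50).

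The midbrain and hindbrain factors split by mouse. Of 20, 19 passed the count filter, 1 was called higher and 4 lower (median -1.35), against 25.8% and 28% of all genes. Their summed level was 12.9, 17.3 and 22.6 CPM in IPs 1, 2 and 3, but 46.7, 38.9 and 49.8 CPM in IPs 4, 5 and 6, the mice of the 3 inputs, which held 51.0, 40.8 and 57.9 CPM. Hoxb5, a factor of caudal hindbrain and spinal cord, was among them, at 0.235, 0.956 and 0.0707 CPM in IPs 1, 2 and 3, 9.13, 4.89 and 11.8 CPM in IPs 4, 5 and 6 and 13.4, 7.38 and 13.0 CPM in the inputs. Its log2 ratio was -1.34 ± 0.99 (adjusted p 0.275), and -0.38 (adjusted p 0.151) with mouse as a replicate block. How much caudal brainstem each tissue piece held was not recorded in the labels, and its part in these ratios was not tested. Pax7 and En2, of dorsal midbrain and the midbrain-hindbrain border, were called lower at -2.44 and -1.90, and not against input 3 alone (-2.41 and -1.17). The gene called higher was Lhx9, of midbrain and thalamic neurons, at 7.84, 13.7 and 17.6 CPM in the IPs and 3.45, 5.43 and 7.27 CPM in the inputs (log2 1.31 ± 0.30, adjusted p 0.00355). After correction it was 0.34, and against input 3 alone 0.86, not called in either.

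Neuropeptide precursors were mixed. Of 21, 19 passed the filter, 4 were called higher and 5 lower (median 0.05), close to the shares of all genes (25.8% and 28%). Adcyap1, the precursor of PACAP, stood at 35.6, 44.8 and 54.1 CPM in the IPs and 19.9, 20.8 and 22.4 CPM in the inputs (log2 1.09 ± 0.15, adjusted p 0.00015), without overlap, but at a corrected ratio of 0.12 that was not called. Cck, a peptide of many cortical and thalamic excitatory neurons and the most abundant of the list per kb in both groups, had 0.77 (adjusted p 0.0149) and 1.32 after correction. Its call was lost without input 3 (0.60) and against input 3 alone (1.11). Grp, gastrin-releasing peptide, had 0.60 (adjusted p 0.00984), with no call against input 3 alone (0.82) or with mouse as a replicate block. Scg2, the secretogranin of dense-core vesicles, had 0.76 (adjusted p 0.00495), with no call after correction (0.20) or against input 3 alone (0.68). Npy, of interneurons, was lower, with 74.9, 83.2 and 48.8 CPM in the inputs and 2.34 to 8.65 CPM in the IPs (log2 -3.90 ± 0.33, adjusted p 3.5e-06). Tac1, the substance P precursor, had -1.50, and Tac2 -1.63, the latter -1.17 and not called against input 3 alone. The melanin-concentrating hormone precursor Pmch, of lateral hypothalamus, had 0.65 and was not called. It was called without IP 4 (0.79), without input 3 (0.80) and with mouse as a replicate block. Its corrected ratio was -0.22.

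Genes for glutamate receptors were called in both directions. Of 17 ionotropic glutamate receptor genes 6 were called higher and 3 lower (median 0.17), where 25.8% of all genes were called higher and 28% lower. After correction 6 and 5 were called (median 0.08), against 27.4% and 28.5%. Grin2b, an NMDA receptor subunit, stood at 255, 288 and 366 CPM in the IPs and 34.4, 53.0 and 119.9 CPM in the inputs (log2 2.11 ± 0.34, adjusted p 0.00038). Its ratio was 2.75 without input 3, 1.30 against input 3 alone and 1.73 after correction, and it was called in each of these. Grin2a had 1.85, and the AMPA receptor subunits Gria2 and Gria3 1.90 and 2.09. After correction these were 1.50, 0.90 and 1.29, and all were still called. Against input 3 alone they were 1.13, 1.29 and 1.49, and Gria2 was not called. Grin1, the subunit shared by all NMDA receptors, was not called at 0.07 and was after correction (0.57, adjusted p 0.000215). Grin2c and Grin2d, further NMDA receptor subunits, were called lower, at -2.47 and -1.66, with every IP below every input. Of 7 metabotropic receptor genes 5 were called higher and 2 lower (median 0.74). Their summed level was 287 CPM in IP 1, below input 3 (324 CPM), and 409 to 487 CPM in the other IPs. The presynaptic receptors Grm2 and Grm8 had 0.65 and 1.89, the latter 1.29 against input 3 alone, while Grm3, which astrocytes express, had -0.96. Grm4 had -0.62, without a call after correction (-0.10) or against input 3 alone (-0.50).

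Of 16 subunit genes of GABA-A and glycine receptors 11 were called higher and 0 lower (median 1.20), but after correction 7 were higher and 2 lower (median 0.35). Their summed level was 1131 CPM in IP 1 and 2277 to 2951 CPM in the other IPs. The inputs held 715, 687 and 1239 CPM, so IP 1 lay below input 3. Gabrd, of extrasynaptic receptors, was not called at -0.12 and was after correction, at 0.36 (adjusted p 0.00571).

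Of 26 voltage-gated channel genes 10 were called higher and 8 lower (median 0.15), against 25.8% and 28% of all genes. After correction 10 and 4 were called (median 0.13), against 27.4% and 28.5%. Scn2a, a sodium channel of excitatory axons, had 1.76 ± 0.34 (adjusted p 0.00129), 0.90 after correction, and 1.16 without a call against input 3 alone. Cacna1e, the R-type calcium channel, had 1.55 (adjusted p 0.000872), and 0.88 against input 3 alone. Hcn2, the pacemaker channel of thalamic and many other neurons, was lower, at 84.5, 103 and 124 CPM in the IPs and 315, 273 and 253 CPM in the inputs (log2 -1.43 ± 0.15, adjusted p 1.65e-05), and Cacna1h, a T-type calcium channel, had -0.92. Of 17 genes of vesicle release 5 were called higher and 4 lower (median 0.02), close to the shares of all genes (25.8% and 28%). After correction 10 were called higher and 0 lower (median 0.43). Snap25, a SNARE protein of the terminal membrane, stood at 3083, 6652 and 7331 CPM in the IPs and 1292, 1276 and 2437 CPM in the inputs. Its lowest IP, IP 1, lay above all inputs (log2 1.88 ± 0.30, adjusted p 0.000361, corrected 1.25). Syt1, the calcium sensor of fast release, had 1.30 and 0.66 after correction, and Stx1a, a partner of Snap25, 0.79. Both were called against input 3 alone (0.91 and 1.06). Of 5 neurofilament genes Nefm was called higher (1.38, adjusted p 0.00195) and not against input 3 alone (0.98). Prph was called lower (-0.86, adjusted p 0.00233), and neither after correction (-0.35) nor against input 3 alone (-0.66). The list median was 0.20, and of all genes 25.8% were called higher and 28% lower. Of 11 immediate early genes 2 were called higher (median 0.27), against 25.8% of all genes, and 6 after correction (median 0.71), against 27.4%. Among the 2 was Egr1, at 208, 264 and 332 CPM in the IPs and 149.5, 158 and 126 CPM in the inputs (log2 0.87 ± 0.17, adjusted p 0.00159), whereas Fos at 0.86 was not called, though it was without IP 1 (0.99), without IP 4 (0.99) and after correction (1.05). With mouse as a replicate block Fos was called too. Of 4 cerebellins, which organise synapses, Cbln2 was called higher (0.90, adjusted p 0.000224), a share like that of all genes (25.8%). The median of the cerebellins was 0.32.

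**Figure D3:**
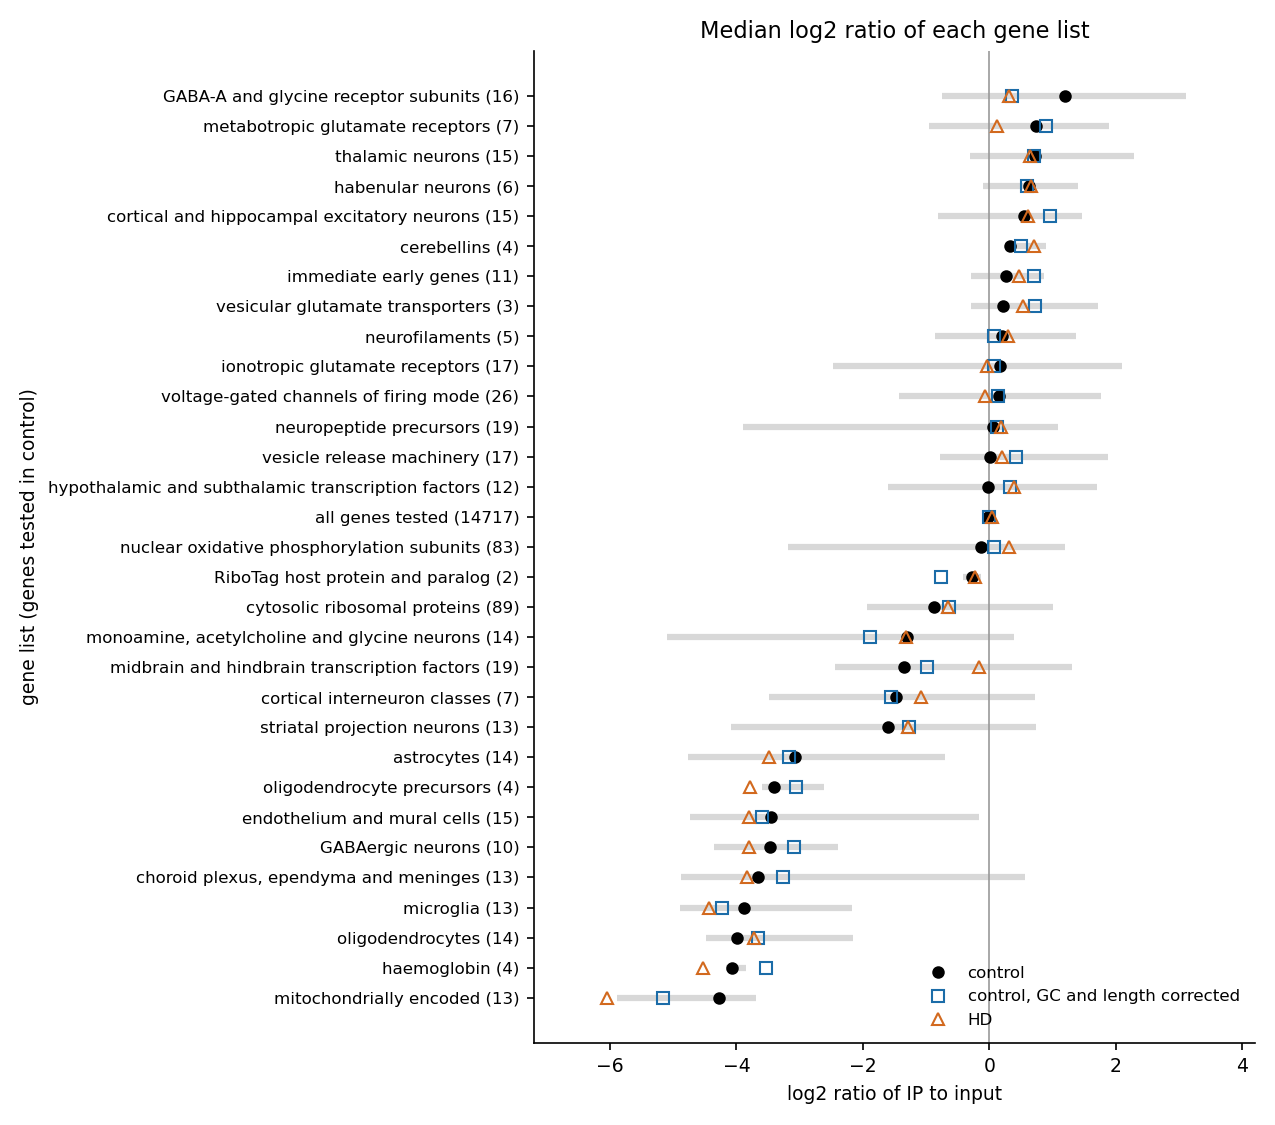
Median log2 ratio of IP to input for each gene list and for all genes tested, with the number of genes tested in control mice. Black circles are control mice, blue squares control mice with GC and length correction and orange triangles HD mice, and grey bars span the lowest to the highest gene of a list in control mice. The medians of the glial, vascular and haemoglobin lists and of the list GABAergic neurons lie between -3.08 and -4.06 in control mice. Those of striatal projection neurons and cortical interneuron classes lie at -1.60 and -1.47.

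Among genes without overlap and with a mean of at least 5 CPM in the higher group, the 15 called genes of highest ratio included Rock2, Rxfp1, Emc2, Nol8, Esf1, Gm15446, Abi3bp, Hsp90aa1, Ift81, Htatsf1, Ssb, Rsrc2, Zfp605 and Atrx, from 3.15 to 2.42. The transcript GC content of these 14 ran from 38.0% to 47.8%, and their corrected ratios ran from 1.44 to 2.18, all called. Rock2, a kinase that regulates the actin cytoskeleton, stood at 250.1, 583 and 694 CPM in the IPs and 44.6, 50.8 and 79.7 CPM in the inputs (log2 3.15 ± 0.38, adjusted p 5.62e-05, corrected 2.12). Rxfp1, a relaxin receptor, stood at 8.51, 15.2 and 17.4 CPM in the IPs and 1.26, 0.848 and 3.17 CPM in the inputs (log2 3.04 ± 0.41, corrected 2.12, 3.73 without input 3, 2.15 against input 3 alone). It passed the limit of 5 CPM only through the IPs. Hsp90aa1, a cytosolic chaperone, stood at 1419, 1960 and 2267 CPM in the IPs and 170, 347 and 492 CPM in the inputs, with a log2 ratio of 2.52 and a corrected ratio of 1.90. Against input 3 alone, Atrx, Zfp605 and Gm15446 were not called (1.77, 1.74 and 2.07), and the other 11 were.

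The 15 of lowest ratio were mt-Atp6, mt-Nd6, Apoc1, mt-Atp8, mt-Nd3, mt-Co3, Kcne1l, Pld4, Slc6a5, Laptm5, Tmem119, Gpr37l1, Plin3, Gng11 and Ppp1r14a, from -5.88 to -4.86. After correction they ran from -6.62 to -4.26, all called. Gpr37l1, a receptor of astrocytes, stood at 7.56, 11.1 and 15.4 CPM in the IPs and 383, 314 and 312 CPM in the inputs (log2 -4.89 ± 0.27, adjusted p 1.98e-07). Apoc1, an apolipoprotein, and Laptm5, a lysosomal protein of myeloid cells, had -5.36 and -4.90. mt-Nd3 was not called against input 3 alone (-4.57), and its ratio was -6.66 without IP 6. mt-Co3, at 0 CPM in the lowest IP, had -5.70 without IP 3.

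Transcripts made within mitochondria, which cytosolic ribosomes do not translate, were depleted, and 13 of 13 were called lower (median -4.28), at a summed 409, 1012 and 2937 CPM in the IPs and 29781, 14642 and 35838 CPM in the inputs. They held 0.0428% of all counts in the lowest IP, 0.112% at the median and 0.359% in the highest, against 3.71%, 2.05% and 4.32% in inputs 1, 2 and 3. mt-Co1, the most abundant per kb in the IPs, had a log2 ratio of -3.83 ± 0.45 (adjusted p 4.22e-05) and -4.82 after correction. Nuclear genes of oxidative phosphorylation, translated in the cytosol, were called in both directions. Of 85, 83 passed the filter, 9 were called higher and 11 lower (median -0.13), both below the shares of all genes (25.8% and 28%). After correction 23 were higher, a share like that of all genes, and 14 lower (median 0.07). In HD mice 27 were called higher and 2 lower (median 0.31), against 12.5% and 15.2% of all genes. Ndufs4 and Uqcrb, of complexes I and III, were called higher at 1.21 and 1.20, and were not called after correction (0.36 and 0.41).

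Rpl22, which supplies the tagged protein, stood at 59.1, 63.3 and 99.6 CPM in the IPs, IP 1 highest, and 98.4, 98.4 and 80.5 CPM in the inputs. The groups overlapped, and the log2 ratio of -0.42 ± 0.17 was not called (adjusted p 0.0591), though it was after correction (-0.60, adjusted p 0.0127), without IP 1 (-0.55) and without input 3 (-0.53). Its paralog Rpl22l1 had -0.13, not called, and -0.93 (adjusted p 0.0149) after correction. Of 94 cytosolic ribosomal protein genes 89 passed the filter, 65 were called lower and 2 higher (median -0.87), at a summed 10936, 12968 and 22020.2 CPM in the IPs and 25332, 28099.7 and 20795 CPM in the inputs. IP 1 was the high IP and lay above input 3, and the other 5 IPs lay below all inputs. Rplp1, of the ribosomal stalk, had -1.73 and -1.06 after correction. The 2 called higher were Rpl7 (1.004, adjusted p 0.000955) and Rpl36al (0.85, adjusted p 0.0183). Rpl36al lost its call without input 1 (0.72) or input 3 (0.79) and against input 3 alone (0.91). Ribosomal protein genes have many near-identical copies in the genome, and their single values are uncertain.

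HD mice, which share no library with the control comparison, gave the same measure again, and no difference between genotypes was tested. Of 14677 genes tested 1829 were called higher in IP (12.5%) and 2232 lower (15.2%), and with the correction 2866 (19.5%) and 2561 (17.4%). Without HD input 3, 960 were called higher. The HD IP labelled re1 held 81.85% of its counts in protein-coding genes and 17.16% in CT010467.1, against at least 96% and at most 3.07% in the other HD IPs. The series has 3 libraries labelled re, and the methods of the study state that 3 libraries were sequenced again with longer reads. Without it 2208 genes were called higher and 3135 lower. Slc17a6 had a log2 ratio of 1.11 in the HD fit of all libraries (adjusted p 0.015), with IPs of 73.2 to 149 CPM and inputs of 31.8 to 61.7 CPM. Slc17a7 was called higher too, at 0.54 (adjusted p 0.0373). Slc17a6 was not called without HD input 2 (0.88) or HD input 3 (1.06). Of the 2234 genes at least 2-fold lower in control IP and tested in both, 1571 (70.3%) were called lower in HD and 0 higher. Of the 1929 at least 2-fold higher, 541 (28%) were called higher and 0 lower, and of the 463 that were also 2-fold higher after correction, 202 (43.6%) and 0. Calls lower repeated in full for GABAergic neurons (10 of 10 lower, median -3.79), astrocytes (14 of 14, -3.48), oligodendrocytes (14 of 14, -3.72) and microglia (13 of 13, -4.43). The same held for oligodendrocyte precursors (4 of 4, -3.785) and haemoglobin (4 of 4, -4.53). Some other lists repeated in part, with 11 striatal genes called lower (12 in controls), 4 interneuron genes (5 in controls), 6 genes of monoamine, acetylcholine and glycine neurons (9 in controls) and 1 midbrain and hindbrain factor (4 in controls), where the list median was -0.16. Thalamic genes had 7 of 15 called higher and 0 lower (median 0.64), with Ntng1 at 1.01 (adjusted p 0.00317), and cortical and hippocampal genes 8 and 1 (median 0.61), with Neurod6 at 1.29 (adjusted p 0.000235). GABA-A and glycine receptor subunits had 1 of 16 called higher and 0 lower (median 0.32), ionotropic glutamate receptors 0 and 3 of 17 (median -0.03), metabotropic receptors 1 and 1 of 7 (median 0.13), voltage-gated channels 1 and 4 of 26 (median -0.06) and habenular genes 0 and 0 of 6 (median 0.67). Rock2 had 2.36 (adjusted p 0.00121). All 13 mitochondrial transcripts were called lower in HD (median -6.05).

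The ratio of IP to input was then set against that of Gad2 neurons of the same tissue, with no library in common, by a test of the difference between the ratios. Of 14711 genes 909 were more enriched in the vGluT2 IP (6.18%) and 960 less (6.53%), and with the correction 1456 were more (9.9%) and 1349 less enriched (9.17%). Slc17a6 differed by a log2 of 3.62 (adjusted p 0.00109), with a ratio of -1.91 in the Gad2 line. Without Gad2 input 1 the difference was 2.75. Slc17a7 differed by 2.90 (adjusted p 8.22e-05), so 2 of the 3 transporters were more enriched. All 10 GABAergic genes were less enriched (median difference -5.45 against 0.03 for all genes), as were 12 of 13 striatal genes (median -3.86) and 5 of 7 interneuron genes. Slc32a1 had a mean of 11.8 CPM in the vGluT2 IP and 781 CPM in the Gad2 IP (difference -6.30, adjusted p 9.17e-09). Further genes were taken by rank among those called in the difference, with a mean of at least 5 CPM in any of the 4 groups and no overlap between lines in the ratios of single IPs to their mean input. By this rule the 5 of the most negative difference included Dlx5, Slc32a1, Clec12a and Adora2a, from -6.49 to -6.16. Clec12a, a myeloid lectin, had at most 0.135 CPM in the vGluT2 IPs and a mean of 6.36 CPM in the Gad2 IPs. It passed the limit only through the Gad2 IPs. Of 13 microglial genes 13 were less enriched in the vGluT2 IP (median -2.87), against 1 of 14 astrocyte and 1 of 14 oligodendrocyte genes.

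By the same rule the 5 of the largest difference were Neurod6, Dkkl1, Nrn1, Pmch and Ly6g6e, from 4.93 to 4.28. Neurod6 had a mean of 143 CPM in the vGluT2 IP and 4.82 CPM in the Gad2 IP (adjusted p 7.61e-07). Nrn1, a secreted protein of excitatory neurons, had 305 CPM against 14.2 CPM (difference 4.32). Pmch, not called in its own comparison, differed by 4.28 (adjusted p 0.00076), and by 5.11 without Gad2 IP 1. Ly6g6e, which passed the limit only through the vGluT2 IPs (mean 5.18 CPM, highest 10.2 CPM in IP 1), differed by 4.92 without Gad2 IP 4. Of 15 thalamic genes 8 were more enriched and 0 less (median 1.11), of 6 habenular genes 4 and 0 (median 2.17), and of 15 cortical and hippocampal genes 9 and 0 (median 1.13). Of 12 hypothalamic and subthalamic factors 5 were more enriched and 1 less. GABA-A and glycine receptor subunits had 1 of 16 more and 1 less enriched, and 3 more and 5 less with the correction (median difference 0.61, and 0.17 with it).

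The cerebellar vGluT2 IPs show the same Cre line in another tissue. All 5 came from mice that also gave cerebral IPs used here, and the fit did not pair them. Of 14719 genes 3935 were more enriched in the cerebral IP (26.7%) and 2299 less (15.6%). With the correction, 2502 were more (17%) and 2655 less enriched (18%). Cd34, a sialomucin, was among the 5 of the largest difference by the rule used for Gad2, which applies to this paragraph too. It had a mean of 105 CPM in the cerebral IP and 0.361 CPM in the cerebellar IP (difference 5.80, adjusted p 1.29e-09). The others were Casp1, Ccn3, Kitl and Smpx. Casp1 passed the limit only through the cerebral IPs (mean 5.49 CPM). Smpx was low in both IPs, at a mean of 0.780 CPM in the cerebral and 0.898 CPM in the cerebellar IP, and passed the limit through the cerebellar input (9.07 CPM). Ccn3, a matricellular protein, had 324 CPM against 1.23 CPM, and the differences of the 5 ran from 6.20 to 4.86. Without cerebral input 3 that of Casp1 was 7.02 and that of Kitl 5.85. Mrgprf, Sfrp5, Plekhf1, Serpina9 and Tmem51 had the most negative differences by that rule, from -5.70 to -4.12, and were at most 1.92 CPM in the cerebral IPs. Sfrp5 and Serpina9 were low in the cerebellar IPs too, at a mean of 2.93 and 2.69 CPM, and passed the limit only through the cerebral input (7.65 and 11.6 CPM). Among lists, 12 of 17 ionotropic glutamate receptor genes were more enriched in the cerebral IP (median difference 1.97 against 0.12 for all genes) and 2 less, and 9 of 15 thalamic genes were more enriched (median 1.08) and 1 less. With the correction these counts were 12 and 2 for the receptors and 6 and 1 for the thalamic genes. Of 15 cortical and hippocampal genes 3 were more enriched and 0 less, and 5 and 1 with the correction, so their share lay below that of all genes without it and above with it. Slc17a6 differed by 0.91 (adjusted p 0.425), with a ratio of 0.93 in the cerebellum. That difference was -0.42 without cerebellar input 4 and 1.58 without cerebellar IP 5, and was called in neither.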

How the data were processed

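The deposited table held estimated counts per gene from Salmon, made by the authors with nf-core/rnaseq 3.0 at default settings from paired reads of stranded mRNA libraries, aligned with STAR to GRCm38.p6 with spike-in and HA tag sequences added. No source at hand names the versions of STAR and Salmon or the annotation release. The table had 55493 rows for 106 libraries of 45 mice, of which 92 were spike-ins, and 8.57% of its values were not whole numbers.

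Library groups came from the labels, and IP and input of the same mouse from the identifiers there. Gene names, types, transcript GC content and length came from GENCODE M21, which matched 55141 of 55401 mouse genes. Counts were rounded, and protein-coding genes whose mean count exceeded 10 across a fit's libraries were tested with edgeR 4.0.16 (TMM, quasi-likelihood, 2-sided, Benjamini-Hochberg over all genes tested), called at an adjusted p of 0.05 or less. Each comparison was fitted on its own libraries without a block. The comparisons of vGluT2 with Gad2 and of cerebrum with cerebellum used an interaction term. A standard error is the log2 ratio divided by the root of the F statistic. DESeq2 1.42.0 gave the size factors and the Wald test of the alternatives. The fits ran in R 4.3.3 and in Python 3.11.15 with matplotlib 3.10.9, pandas 2.3.3 and numpy 2.4.6, and the fits were tested on simulated data.

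The libraries, the comparisons and the 30 gene lists, 2 of them by symbol pattern, were chosen with earlier results of these data known. All list genes could be named. Besides these, the 15 called genes with the highest and the 15 with the lowest ratio among those without overlap and at 5 CPM or more in the higher group could be named, and the 5 on each side of each interaction by a like rule, with 5 CPM in any of the 4 groups and overlap judged on the ratios of single IPs to their mean input.

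The alternatives were other scalings, filters and gene types, a Wald test, leaving out each library in turn, mouse or replicate number as a replicate block, the 13 inputs of 4 Cre lines as input, and thinning to the smallest total. The GC and length correction, which used natural splines with 5 degrees of freedom for each library as an offset, and input 3 as the only input were chosen after seeing the data. With a lone input, its spread was taken to be that of the IPs. The depth was 28504318 to 68022491 counts per library, and the biological coefficient of variation was 0.245. Of the list genes, Phox2a, Agrp, Kiss1, Cox8c, Atp5o and 5 ribosomal protein genes or copies stayed under the count filter and were not tested.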

Additional observations from a re-analysis of the deposited data

Results flagged for a closer look

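Single libraries lay far from the other IPs of their group by Dixon's test in 26 of 149 measures and genes tested, and chance gives about 1 in 20 groups. The library measures were the total counts of IP 2 (68022491, others at most 43035651), the ribosomal protein share of IP 1 (2.18%), the haemoglobin share of IP 2 (0.0169%), the protein-coding share of IP 6 (93.4%, others 97.0% or more) and the share of CT010467.1 in IP 6 (5.55%).

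IP 1 stood apart in 15 of the 21 genes. It was lowest in Tbr1 (117 CPM), Nwd2 (21.9), Gria3 (112), Scn2a (104), Snap25 (3083), Ccn3 (210), Casp1 (4.21), Kitl (28.3) and Atrx (30.1). It was highest in Ppp1r1b (230 CPM), Nrgn (3542), Cck (790), Vtn (10.4), Rpl22 (99.6) and Dkkl1 (55.9). IP 2 was highest in Hbb-bs (78.3 CPM) and Hba-a2 (42.9) and lowest in Htatsf1 (116). IP 6 was lowest in Vip (0.315 CPM) and highest in mt-Nd3 (7.80), and IP 4 was highest in Grm4 (45.7 CPM). What set these libraries apart was not tested.

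The ratio of IP to input differed between groups, by the interaction test, in 909 genes more and 960 less enriched in the vGluT2 than the Gad2 IP, and in 3935 more and 2299 less enriched in the cerebral than the cerebellar vGluT2 IP.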

How the results depend on the processing

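The counts of genes called, of the 4 control results, the 2 of HD mice and the 4 interactions, were within 1.5 times their value under both other scalings, the Wald test, both other filters, all gene types and, for the control results, both plain replicate blocks, the input of 4 Cre lines and thinning. Scaling by size factors or total counts changed the sign of no named gene.

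The GC and length correction changed 4 of these 10 counts by more than that factor. Genes at least 2-fold higher were 650, and 704 with mouse as a replicate block and the correction together. HD mice had 2866 genes called higher, 1456 genes were more enriched in vGluT2 than Gad2 IP, and 2502 were more enriched in the cerebral than the cerebellar IP. Counts within that factor still held other genes in part. Of the 3791 control genes called higher, 2368 stayed so with the correction. Of the 2299 genes less enriched in the cerebral than the cerebellar IP, 1435 stayed so. Against input 3 alone, 916 genes were called higher, 2090 lower and 495 at least 2-fold higher, where an arm of 1 library also leaves less to test with. Of the 495, 477 were among the 1940 of the fit with 3 inputs. Leave-one-out fits gave 1274 (without input 1) to 2626 (without input 3) genes at least 2-fold higher, and 960 (without HD input 3) to 2208 called higher in HD mice. The cause of these changes was not tested.

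Of 142 named genes, 10 lost and 7 gained a call in the same direction with the correction, and 35 lost it against input 3 alone. With mouse as a replicate block, which pairs IP and input in 3 mice, Drd1, Grp, Slc6a3, Slc1a2, Ly6g6e and Smpx lost and Camk2a, Prkcd, Pmch and Fos gained a call. Of the 30 list medians, 10 moved by at least the standard deviation between IPs with the correction, 7 against input 3 alone and 9 with mouse as a replicate block. These 9 were GABAergic neurons, microglia, vessels, choroid plexus and haemoglobin (all lower), and cerebellins, neurofilaments, hypothalamic factors and midbrain and hindbrain factors (all higher). Over the leave-one-out fits of these genes, 1236 values kept direction and call, 31 lost it and 7 gained it. Some named genes changed direction, and the cause was not tested. With the correction, Camk2a had 0.10, Pmch -0.22, Gabrd 0.36 and Dcn -0.35. With mouse as a replicate block and the correction, Camk2a had 0.039, Hoxb5 0.0057, Pmch -0.40, Grm4 0.016, Gabrd 0.46 and Dcn -0.42. With mouse as a replicate block alone Rpl22l1 had 0.036. Gabrd had 0.032 with the input of 4 Cre lines and 0.043 against input 3 alone. Leave-one-out fits gave Grin1 -0.013 (without input 3) to 0.134 (without input 1) and Rpl22l1 -0.213 (without input 2) to 0.0066 (without input 1). The difference of Slc17a6 from the cerebellum, 0.91, was -0.42 without cerebellar input 4.

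Replicate numbers do not pair IP and input of a mouse, so the replicate block by number is no pairing. In these bulk libraries, the ratios of 3 inputs and 6 IPs depend on few libraries, genes under the mean count of 10 were not tested, and RNA that adheres to the beads could not be measured without an IP from mice that lack Cre.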
